A study of Homo sapiens with 38 samples.

Results

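Loss of p130 was examined in IMR90 human diploid lung fibroblasts by setting all 8 arrays of cells that carried a short hairpin RNA against p130 (shp130) against all 8 arrays of cells that carried the empty vector, named MLP in the labels. The 16 arrays were chosen by these labels from the 38 arrays of the series, and all belong to experiment 1. In each arm 2 arrays came from growing cells in 10% fetal bovine serum (FBS) and 2 from cells made quiescent in 0.1% FBS (low serum). A further 2 came from confluent cells and 2 from cells in ras-induced senescence, both in 10% FBS. Cells with a hairpin against RB (shRB) or p107 (shp107), again 8 arrays each over the same states, were used for comparison only. The labels give 1 hairpin name for p130, so effects of p130 loss and other effects of that hairpin cannot be told apart. The labels do not say that replicates were separate cultures, so p-values measure the spread between arrays, which may be technical. In bulk RNA, a change in the share of cells that express a gene and a change in RNA per cell cannot be told apart.

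p130, encoded by RBL2, is one of the 3 pocket proteins together with RB (RB1) and p107 (RBL1). Pocket proteins bind E2F transcription factors. In cells that have left the cycle, p130 with E2F4 and the MuvB proteins forms the DREAM complex, which holds down genes for DNA replication and mitosis. DREAM reaches many mitotic genes through an element named the cell cycle genes homology region (CHR), and CCAAT boxes bound by NF-Y are common in the same promoters.

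Array medians lay between 3.30 and 3.39 log2 units, and 21.7% to 23.8% of probe sets per array were above a log2 value of 5, which was taken as the floor of detection. All 12 fibroblast markers passed that floor, the highest single array value being that of DCN, and none passed the test of shp130 against vector. No blood marker passed, and of the epithelial markers only KRT18 and of the endothelial markers 2, TEK among them, did so. The confluent arrays stood apart in one respect. Over the 8511 genes tested, the shp130 and vector means were both above, or both below, the shRB and shp107 means by more than 1 log2 unit for 629 genes in confluent cells, against 21 in growing, 10 in low-serum and 53 in senescent cells. The inflammatory cytokine gene IL6, for instance, measured 12.72 and 13.08 on the confluent shp130 arrays, 7.99 and 6.95 with shRB, 7.43 and 7.22 with shp107, and 13.38 and 10.12 with vector. The labels give no reason, and the cause was not tested. The comparison of shp130 with vector stays within one side of that split. Comparisons of shp130 with shRB or shp107 cross it and are given below with and without the confluent arrays. The 2 confluent vector arrays also differed from each other more than any other replicate pair of the 8 groups of shp130 and vector (SD of their difference 0.794 log2 units, r = 0.941 over the genes tested).

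RBL2 itself measured 5.19 and 5.49 on the growing shp130 arrays against 7.72 and 7.67 on the growing vector arrays. It measured 5.32 and 5.86 with shp130 against 8.47 and 8.0 with vector in low serum, and 5.56 and 5.37 against 8.29 and 8.34 in confluent cells. In senescent cells it measured 4.75 and 4.64 with shp130 against 7.68 and 7.47 with vector. No shp130 array reached any vector array. A limma fit with growth state as a block gave a log2 change of -2.68 ± 0.12 (SE, n = 8 against 8, adjusted p = 1.84e-09), where a difference of 1 is a 2-fold change. The RBL2 effect was of like size in the 4 states, from -2.35 in growing to -2.88 in senescent cells. RB1, with a change of 0.06 ± 0.12 (adjusted p = 0.930), and RBL1, with 0.14 ± 0.20 (adjusted p = 0.886), did not pass the test. RBL1 was below the floor on all but 1 of the 16 arrays, so that its change is poorly measured.

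**Figure D1:**
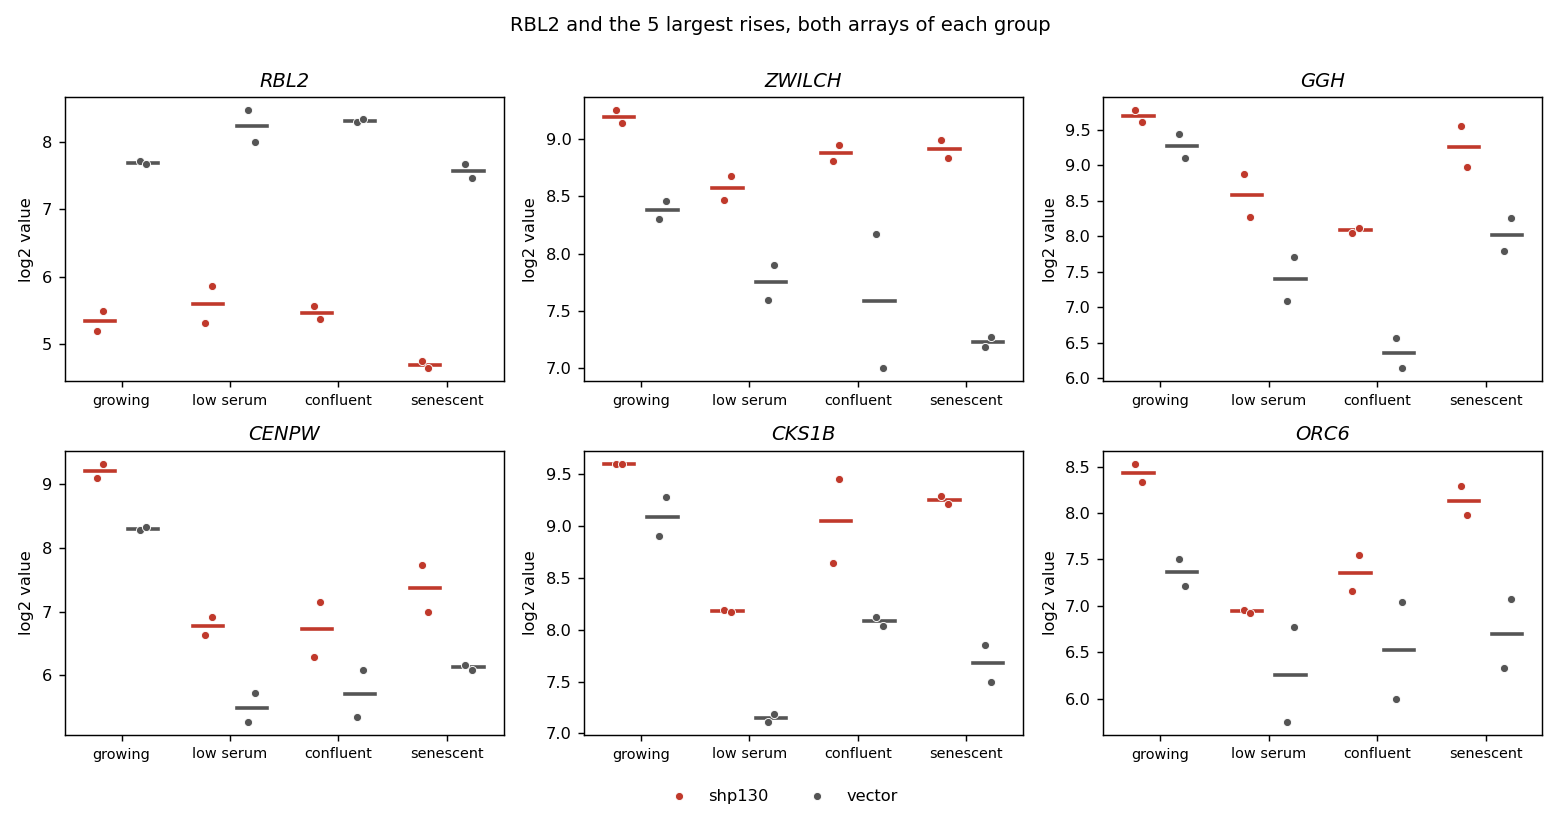
Log2 values (y axis) of RBL2 and of the 5 genes with the largest rises, in the 4 growth states (x axis). Points are single arrays and bars are means of the 2 arrays, with shp130 in red to the left of vector in grey. The shp130 points of RBL2 lie below, and those of the other 5 genes above, both vector points in each state.

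Besides RBL2, 46 of the 8511 genes passed the same fit at an adjusted p under 0.05 (limma, Benjamini-Hochberg over all genes). With RBL2 the fit called 0.552% of all genes, with 22 genes higher (0.258%) and 25 lower (0.294%), while 776 genes (9.12%) had an unadjusted p under 0.05, 4.28% higher and 4.84% lower. The rises ranged from 0.54 to 1.15 and the falls from -0.45 to -1.12 log2 units. All 46 moved in the same direction in the 4 states, a feature the block fit favours, against 15.7% of all genes tested. In 36 of them, 17 higher and 19 lower, both shp130 arrays also lay on one side of both vector arrays in every state. Including RBL2 that makes 37 genes called and apart in every state (0.435% of genes tested), whereas 80 genes (0.94%) were apart whether called or not. The shp130 effect did not pass a test of differences between states in any of the 46 (limma moderated F-test, lowest adjusted p = 0.499). The block fit favours that outcome too, because a difference between states adds to its residual, so it is no separate support. The size of the set depended on every state being present. Without the senescent arrays only RBL2 and SLC25A44 were called, without the growing arrays 9 genes, without the low-serum arrays 10 and without the confluent arrays 76. Single arrays mattered too. In growing cells, dropping vector replicate 1 or 2 left 20 or 31 genes, and dropping shp130 replicate 1 or 2 left 31 or 24. Of the other arrays, set aside in turn, 8 left between 33 and 67 genes. The rest gave 27 genes without low-serum vector replicate 1 and 72 without confluent shp130 replicate 1. They gave 27 without senescent vector replicate 2 and 22 without senescent shp130 replicate 1.

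**Figure D2:**
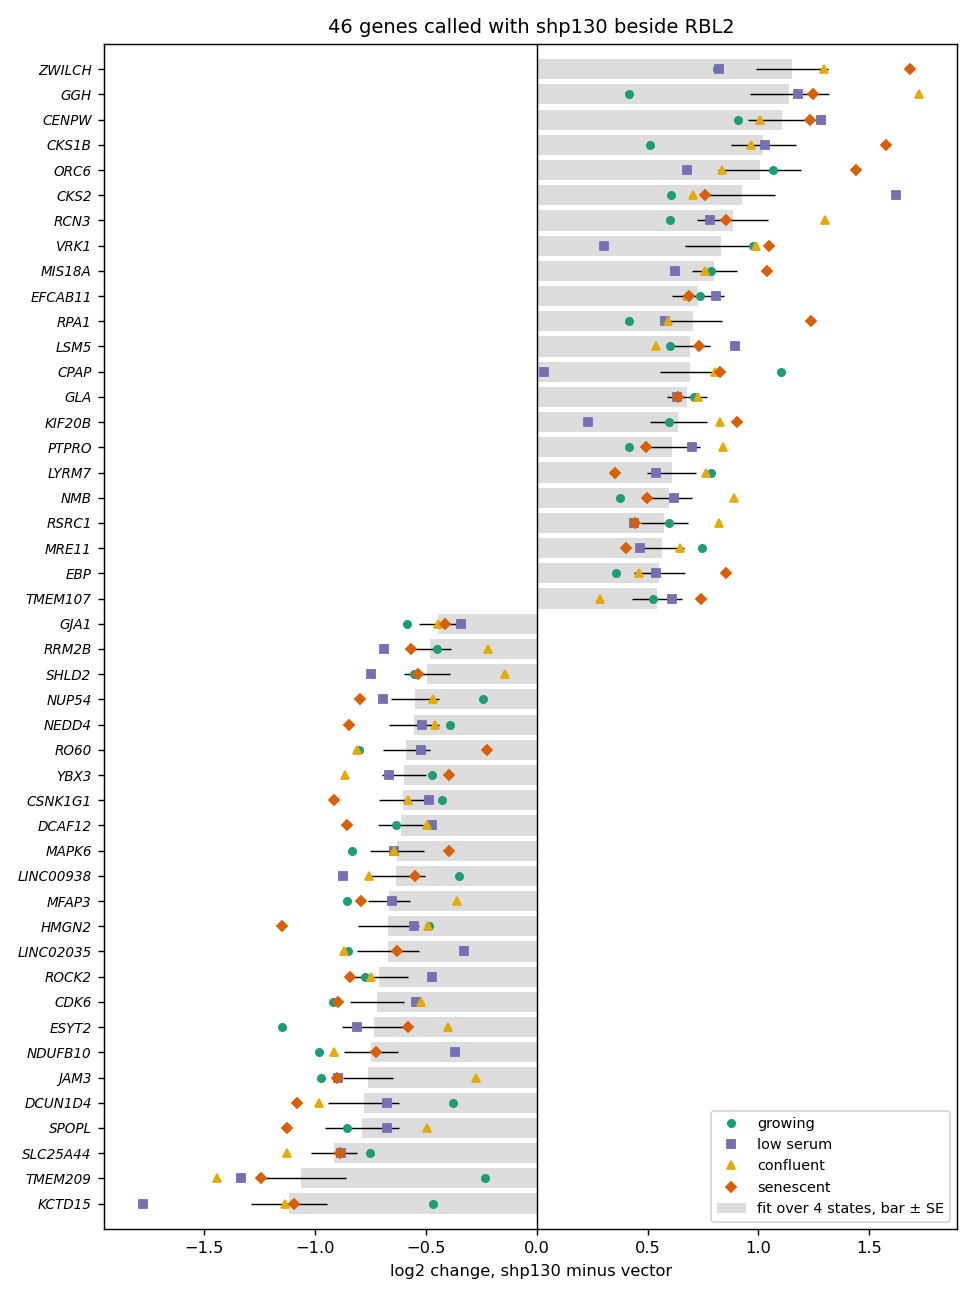
Log2 change, shp130 minus vector (x axis), of the 46 genes called besides RBL2 (y axis). Grey bars and lines give the fit over the 4 states with its SE, and symbols give the difference of the 2 group means in each state. All symbols of a gene lie on one side of 0, and the growing and senescent values of CKS1B are 0.51 and 1.57.

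Several of the rises were genes of the centromere, the kinetochore and the cell cycle engine. ZWILCH, a subunit of the RZZ complex that keeps the spindle checkpoint active at unattached kinetochores, showed the largest change. Its lowest, median and highest values were 8.47, 8.89 and 9.25 over the 8 shp130 arrays and 7.0, 7.75 and 8.46 over the 8 vector arrays. The change was 1.15 ± 0.16 (SE, adjusted p = 0.00354), and the arrays did not overlap within any state. By state it was 0.81 in growing, 0.82 in low-serum, 1.30 in confluent and 1.68 in senescent cells, and a further ZWILCH probe set rose by 1.36.

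CENPW, a histone-fold protein of the inner kinetochore, measured 6.29, 7.08 and 9.32 (lowest, median, highest) with shp130 and 5.27, 6.09 and 8.33 with vector. Its change of 1.11 ± 0.15 (adjusted p = 0.00354) was close in size in all 4 states, from 0.91 to 1.28. MIS18A, which helps load the centromeric histone CENP-A, stood at 7.96, 8.37 and 8.71 with shp130 against 7.22, 7.54 and 8.0 with vector. It rose by 0.80 ± 0.10 (adjusted p = 0.00245), with 0.83 on a further probe set that was also called. Further probe sets, here and below, were called in a fit over all probe sets and not over genes. KIF20B, a kinesin of late mitosis and cytokinesis, rose by 0.64 ± 0.13 (adjusted p = 0.0323), with its smallest difference, 0.23, in low serum. The KIF20B call rested on the choice of arrays and settings, since it was lost in 15 of the 24 alternatives tried.

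CKS1B and CKS2 encode the small partners of cyclin-dependent kinases, and CKS1B also serves the ubiquitin ligase that destroys the inhibitor p27. CKS1B measured 9.60 and 9.60 with shp130 against 8.90 and 9.28 with vector in growing cells, and 8.19 and 8.17 against 7.11 and 7.19 in low serum. In confluent cells it measured 8.64 and 9.45 with shp130 against 8.12 and 8.04 with vector, and in senescent cells 9.29 and 9.21 against 7.85 and 7.5. The groups were apart in each state, with a change of 1.02 ± 0.15 (adjusted p = 0.00389). In senescent shp130 cells CKS1B was thus close to its level in growing cells of either kind, while senescent vector cells lay lower. CKS2 rose by 0.92 ± 0.15 (adjusted p = 0.0101), most of all in low serum, where it measured 10.55 and 10.71 with shp130 against 8.99 and 9.03 with vector. Both genes are read by probe sets that can match more than 1 transcript.

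Further groups of rises, replication and repair, RNA processing, and metabolism, were smaller. Among replication and repair genes, ORC6, a subunit of the origin recognition complex, rose by 1.00 ± 0.19 (adjusted p = 0.0210) on a probe set open to cross-hybridisation. RPA1, the large subunit of the single-strand DNA binding protein, rose by 0.71 ± 0.13 (adjusted p = 0.0182), and MRE11, a nuclease of double-strand break repair, by 0.57 ± 0.10 (adjusted p = 0.0182). A further bright RPA1 probe set gave 0.57 without a call, with 0.0004 in low serum. The RPA1 call was lost in 7 of 26 alternatives. LSM5, part of the LSM ring of RNA decay and splicing, measured 10.43, 11.04 and 11.22 with shp130 and 9.59, 10.41 and 10.54 with vector. Its change was 0.69 ± 0.09 (adjusted p = 0.00245), apart in every state, although other LSM5 probe sets, which are dimmer, gave 0.34 and 0.40 and were not called, with -0.29 and -0.05 in senescent cells.

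GGH, the hydrolase that trims folate polyglutamates, rose by 1.14 ± 0.18 (adjusted p = 0.00828), with 0.41 in growing and 1.72 in confluent cells. GLA, the lysosomal alpha-galactosidase, measured 7.63, 8.36 and 10.24 with shp130 and 6.89, 7.74 and 9.60 with vector. Its change of 0.68 ± 0.09 (adjusted p = 0.00252) was the most even of the rises, between 0.63 and 0.73 in the 4 states. RCN3, a calcium-binding protein of the endoplasmic reticulum, rose by 0.88 ± 0.16, EFCAB11, an EF-hand protein, by 0.73 ± 0.12, and NMB, the peptide neuromedin B, by 0.60 ± 0.10. All 8 vector arrays of EFCAB11 (4.23 to 4.92) were under the floor, and NMB passed it on 4 of the 16 arrays, so that both changes are poorly measured. PTPRO, a receptor tyrosine phosphatase, rose by 0.61 ± 0.12, a call lost in 18 of 26 alternatives. EBP, an isomerase of cholesterol synthesis, rose by 0.55 ± 0.11 with overlapping arrays in at least 1 state. Its call was lost in 19 of 26 alternatives, and a further, dimmer EBP probe set gave 0.05. The arrays of VRK1, CPAP, LYRM7 and TMEM107 also overlapped in at least 1 state, while MRE11 and RSRC1 were apart in every state. MRE11 and these last 5 genes lie outside the rule for named genes and complete the 22.

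The promoters of the genes that rose were read for the CHR (TTTGAA or TTCGAA), for E2F sites (TTTGGCGC, TTTCCCGC, TTTGCCGC or TTTCGCGC) and for the CCAAT box (CCAAT), each on both strands, in the 250 bases before and 50 bases after the gene start in RefSeq (GRCh38.p14). RefSeq promoters were matched for 19 of the 22 genes that rose and 20 of the 24 that fell. A CCAAT box stood in 15 of 19 promoters of rises (78.9%) and 7 of 20 of falls (35%), against 37.1% of the promoters of genes tested and 35.7% of all 27305 promoters. A CHR match stood in 5 of 19 (26.3%) and 1 of 20 (5%), against 11.7% of the genes tested and 16.6% of all. An E2F match stood in 0 of 19 and 1 of 20, against 5.52% of the genes tested and 3.33% of all. These are counts of letters in a window and not of bound sites. The 5 promoters of rises with a CHR match are shown because the background ties that element to DREAM. Capitals mark CHR matches and CCAAT boxes, which read as TTCAAA and ATTGG where they lie on the other strand.
CENPW promoter (chr6:126339865-126340164, plus strand): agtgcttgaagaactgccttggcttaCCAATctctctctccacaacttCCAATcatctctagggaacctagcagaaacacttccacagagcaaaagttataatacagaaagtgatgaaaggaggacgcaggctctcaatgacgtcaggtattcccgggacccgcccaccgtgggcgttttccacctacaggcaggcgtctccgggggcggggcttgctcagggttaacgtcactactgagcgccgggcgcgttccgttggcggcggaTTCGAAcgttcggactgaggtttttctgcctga
CKS1B promoter (chr1:154974431-154974730, plus strand): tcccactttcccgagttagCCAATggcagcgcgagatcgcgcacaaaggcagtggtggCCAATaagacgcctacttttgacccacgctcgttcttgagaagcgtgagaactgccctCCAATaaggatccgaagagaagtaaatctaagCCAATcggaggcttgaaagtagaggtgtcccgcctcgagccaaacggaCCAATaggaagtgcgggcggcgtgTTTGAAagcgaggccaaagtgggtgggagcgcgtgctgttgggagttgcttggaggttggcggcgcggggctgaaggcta
CKS2 promoter (chr9:89310945-89311244, plus strand): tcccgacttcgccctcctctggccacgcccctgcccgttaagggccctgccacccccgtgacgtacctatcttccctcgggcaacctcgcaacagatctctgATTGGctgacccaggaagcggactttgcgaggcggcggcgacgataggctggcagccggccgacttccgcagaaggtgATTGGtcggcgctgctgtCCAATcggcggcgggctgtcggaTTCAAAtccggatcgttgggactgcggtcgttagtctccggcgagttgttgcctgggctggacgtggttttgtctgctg
LSM5 promoter (chr7:32490331-32490630, minus strand): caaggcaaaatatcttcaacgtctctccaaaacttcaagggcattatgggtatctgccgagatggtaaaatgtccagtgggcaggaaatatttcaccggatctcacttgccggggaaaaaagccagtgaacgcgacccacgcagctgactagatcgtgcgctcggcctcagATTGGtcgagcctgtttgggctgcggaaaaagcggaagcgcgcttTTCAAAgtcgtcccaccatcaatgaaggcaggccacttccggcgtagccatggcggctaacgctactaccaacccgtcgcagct
KIF20B promoter (chr10:89701340-89701639, plus strand): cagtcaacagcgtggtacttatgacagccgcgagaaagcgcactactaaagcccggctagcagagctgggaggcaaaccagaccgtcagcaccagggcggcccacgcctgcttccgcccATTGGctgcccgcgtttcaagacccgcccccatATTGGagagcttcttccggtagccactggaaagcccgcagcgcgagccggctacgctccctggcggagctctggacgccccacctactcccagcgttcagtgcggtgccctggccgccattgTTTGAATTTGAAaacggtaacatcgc
In CKS1B 5 CCAAT boxes precede a CHR match at positions -30 to -25 from the gene start, and in CKS2 the CHR match lies at -29 to -24. In CENPW and KIF20B the match lies after the gene start, at 18 to 23 and at 25 to 30 and 31 to 36. The rises of these 5 genes were 1.11 (CENPW), 1.02 (CKS1B), 0.92 (CKS2), 0.69 (LSM5) and 0.64 (KIF20B).

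The falls formed no single class and included signalling, adhesion, ubiquitin and mitochondrial genes. SLC25A44, a mitochondrial carrier of branched-chain amino acids, gave the firmest call after RBL2. It measured 6.91 and 6.45 with shp130 against 7.40 and 7.47 with vector in growing cells, and 6.71 and 6.28 against 7.33 and 7.42 in low serum. In confluent cells it measured 6.38 and 6.69 with shp130 against 7.62 and 7.70 with vector, and in senescent cells 6.96 and 7.24 against 7.97 and 8.0. All 8 shp130 values lay below all 8 vector values. The change was -0.91 ± 0.10 (adjusted p = 0.000897), with -0.87 on a further probe set that was also called, and the call held in all 26 alternatives tried. NDUFB10, a subunit of respiratory complex I, changed by -0.75 ± 0.12 (adjusted p = 0.0105).

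CDK6, the kinase that with D cyclins drives the exit from G1, measured 7.49, 8.83 and 10.57 (lowest, median, highest) with shp130 and 8.53, 9.48 and 11.02 with vector. CDK6 varied by state, and within each state both shp130 arrays were below both vector arrays. Its change was -0.72 ± 0.12 (adjusted p = 0.0127), from -0.52 to -0.92 by state, and other bright CDK6 probe sets gave -0.80 and -0.65 without a call, the second of them with 0.01 in senescent cells. MAPK6, the atypical kinase ERK3, changed by -0.63 ± 0.12 (adjusted p = 0.0277), and CSNK1G1, a casein kinase, by -0.60 ± 0.11 (adjusted p = 0.0182). Of these the MAPK6 call was lost in 13 of 26 alternatives.

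KCTD15, a BTB-domain protein that binds AP-2 factors, showed the largest fall after RBL2, -1.12 ± 0.17 (adjusted p = 0.00662). It measured 4.36, 4.87 and 4.99 with shp130, all under the floor, and 4.79, 6.06 and 6.67 with vector, so that the size of the fall is poorly measured. JAM3, a junctional adhesion molecule, measured 7.26, 7.56 and 8.06 with shp130 and 8.04, 8.32 and 8.69 with vector. Its change was -0.76 ± 0.11 (adjusted p = 0.00464), with -0.97 in growing, -0.90 in low-serum, -0.90 in senescent and -0.27 in confluent cells. GJA1, the gap junction protein connexin 43, changed by -0.45 ± 0.08 (adjusted p = 0.0210), and MFAP3, a microfibril-associated protein, by -0.67 ± 0.09 (adjusted p = 0.00354).

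Genes of the ubiquitin system that fell were DCUN1D4, which aids cullin neddylation (-0.78 ± 0.16), DCAF12, a substrate receptor of a cullin ligase (-0.61 ± 0.10), and the ligase NEDD4 (-0.55 ± 0.11). SPOPL, a cullin adaptor, changed by -0.79 ± 0.17 with overlap in at least 1 state. The calls of DCUN1D4 and NEDD4 were lost in 20 and 19 of 26 alternatives. Of RNA-binding proteins, YBX3, a cold-shock domain protein, changed by -0.60 ± 0.10 and RO60, the Ro autoantigen, by -0.59 ± 0.11. Further probe sets of the last pair gave larger changes, -1.22 for YBX3 and -1.15 for RO60, and were called. Another bright RO60 probe set gave -0.65 without a call, with -0.02 in senescent cells, where the probe set used gave -0.23. RRM2B, the p53-induced subunit of ribonucleotide reductase, changed by -0.48 ± 0.10 (adjusted p = 0.0323), a call lost in 18 of 26 alternatives. Further falls were TMEM209, ESYT2, HMGN2, SHLD2, NUP54, LINC00938 and LINC02035, and the last 3 were apart in every state. SPOPL, GJA1 and these 7 were named after their values were seen. In all, 16 of the 47 called genes had another probe set above the floor, and each of those 21 probe sets changed in the direction of the first. Of the 21, 6 were called in the fit over all probe sets, where some of the probe sets used for the 47 genes were not.

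**Figure D3:**
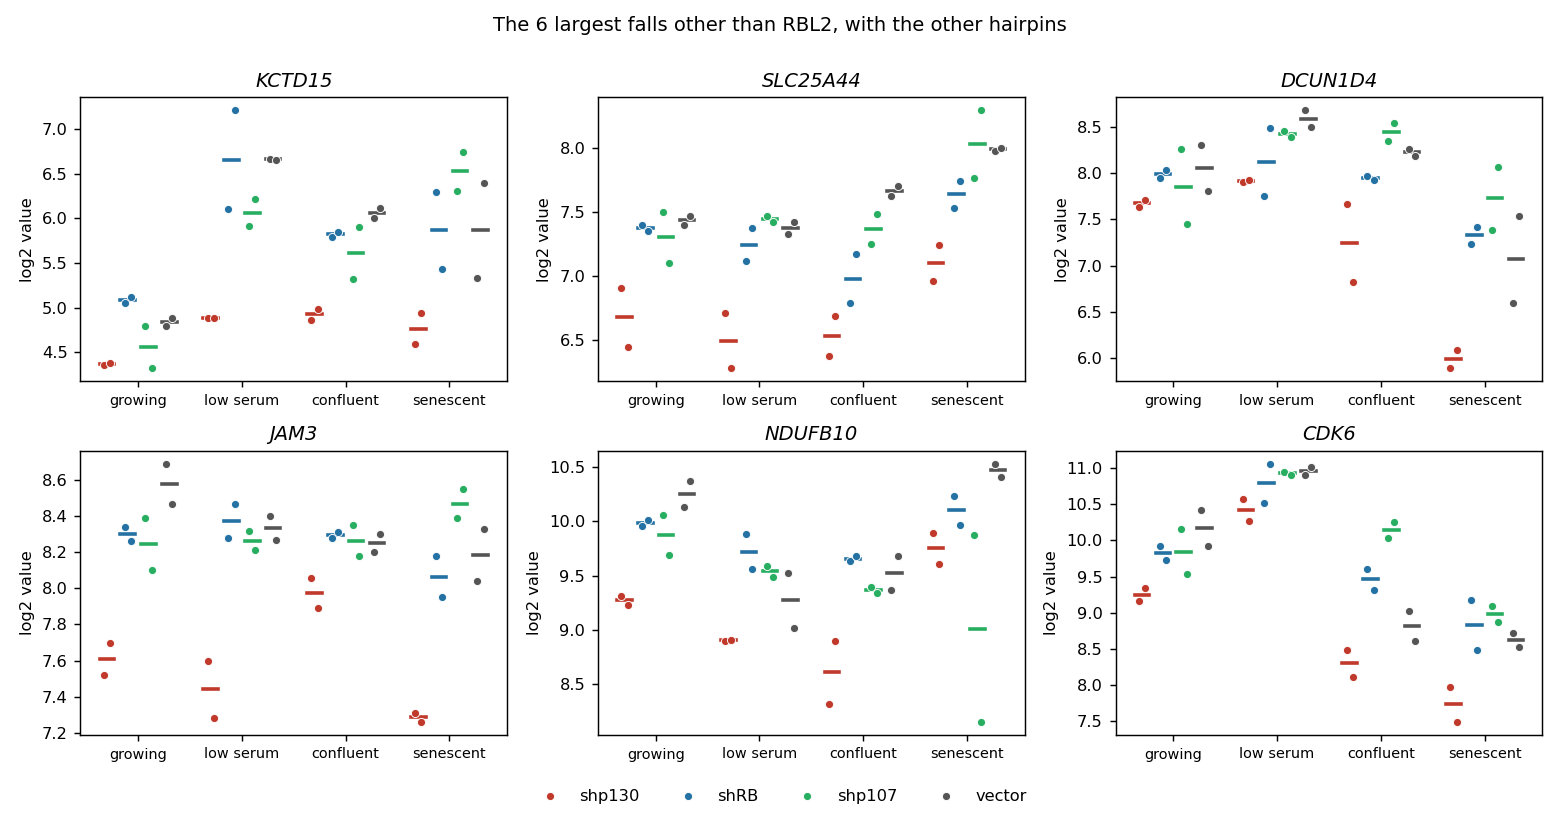
Log2 values (y axis) of the 6 genes with the largest falls after RBL2 among those apart in every state, in the 4 growth states (x axis). Points are single arrays and bars are means of the 2 arrays, in the order shp130, shRB, shp107 and vector. Both shp130 points lie below both vector points in each state, and the confluent shRB and shp107 points of CDK6 lie above those of vector.

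Gene lists held few calls. Of 50 mitosis genes tested, 3 rose (CKS1B, CKS2 and KIF20B) and none fell. That is 6% called, against 0.552% of all genes. Of the 50, 44 (88%) had a positive change, against 47.1% of all genes tested. Their median change was 0.31, against -0.01 for all genes, and was 0.19 without the confluent arrays. Further, 16 of them (32%) were higher at an unadjusted p under 0.05, against 4.28% of all genes. CCNB1, the mitotic cyclin B1, came close with 0.92 ± 0.22 (adjusted p = 0.0776). Of 44 DNA replication genes, 2 rose (ORC6 and RPA1, 4.55%) and none fell, 30 (68.2%) were positive, the median was 0.20, and 13 (29.5%) were higher at an unadjusted p under 0.05. RNASEH2A, a subunit of the RNase that removes RNA from DNA, had 0.88 ± 0.20 (adjusted p = 0.0712). The sliding clamp PCNA (-0.16) and the helicase subunits MCM2 (-0.23) and GINS2 (-0.33) had negative values and did not pass. Genes of 1 list vary together and are not independent. Positive shares of this size were not particular to these lists. Of 19 inflammatory cytokines and chemokines 17 (89.5%) were positive, with a median of 0.23, no call and none higher at an unadjusted p under 0.05. The share was 75% of 12 DNA damage repair genes (median 0.08), 73.3% of 15 histone and chromatin genes (median 0.05) and 73.3% of 15 cholesterol synthesis genes (median 0.04).

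The shift is given by state. The mean log2 value over the mitosis genes was 8.36 and 8.38 on the growing shp130 arrays against 7.76 and 8.08 with vector. In confluent cells it was 5.92 and 6.44 with shp130 against 5.12 and 5.80 with vector, and in senescent cells 5.39 and 5.34 against 5.05 and 5.29. In low serum the groups overlapped, with 5.79 and 5.89 for shp130 against 5.51 and 6.24 for vector. The mean over the replication genes behaved alike, apart in growing (7.57 and 7.5 with shp130, 7.20 and 7.32 with vector), confluent (6.40 and 6.71, against 6.27 and 6.15) and senescent cells (6.08 and 6.13, against 5.68 and 5.90). It overlapped in low serum, where shp130 gave 6.40 and 6.42 and vector 6.29 and 6.56. Outside growing cells the mitosis means lay between 5.05 and 6.44, near the floor of 5, so that their differences there are poorly measured. A gene was tested if it passed the floor on any 2 of the 32 arrays, so members can be under it in some states. CKS1B, CKS2, CENPW, LSM5 and KIF20B were apart in low serum, but the rule for naming them required that. They are therefore not set against these means, whose genes were not chosen in that way.

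Other lists held 1 call or none, while 0.552% of all genes tested were called. Among 10 G1 cyclins and kinases CDK6 was the only call. CCND2, the gene of cyclin D2, had 0.84 ± 0.27 (adjusted p = 0.256), while CCND1, CDK2 and CDK4 lay between 0.10 and 0.18. Among 9 pocket protein, E2F and DP genes only RBL2 passed, and none of 6 MuvB, MYB, FOXM1 and DYRK1A genes did. None of 6 inhibitors of cyclin-dependent kinases passed, with values of -0.37 for CDKN1A (p21, adjusted p = 0.144), -0.23 for CDKN1B (p27) and 0.02 for CDKN2A. Of 21 p53 targets RRM2B fell (4.76% called), and 3 (14.3%) were positive, against 47.1% of all genes tested. Their median was -0.12, against -0.01 for all genes. At an unadjusted p under 0.05, 4 of the 21 were lower, as were 4.84% of all genes. Of 15 cholesterol synthesis genes EBP rose (6.67% called). No gene passed among 27 proteases and regulators of growth factors, 35 fibrillar collagen and matrix genes, 17 contractile and myofibroblast genes, 24 BMP and TGF-beta genes, 16 RAS and ERK response genes, 17 serum immediate early genes, 22 lysosome and autophagy genes or 13 interferon response genes.

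**Figure D4:**
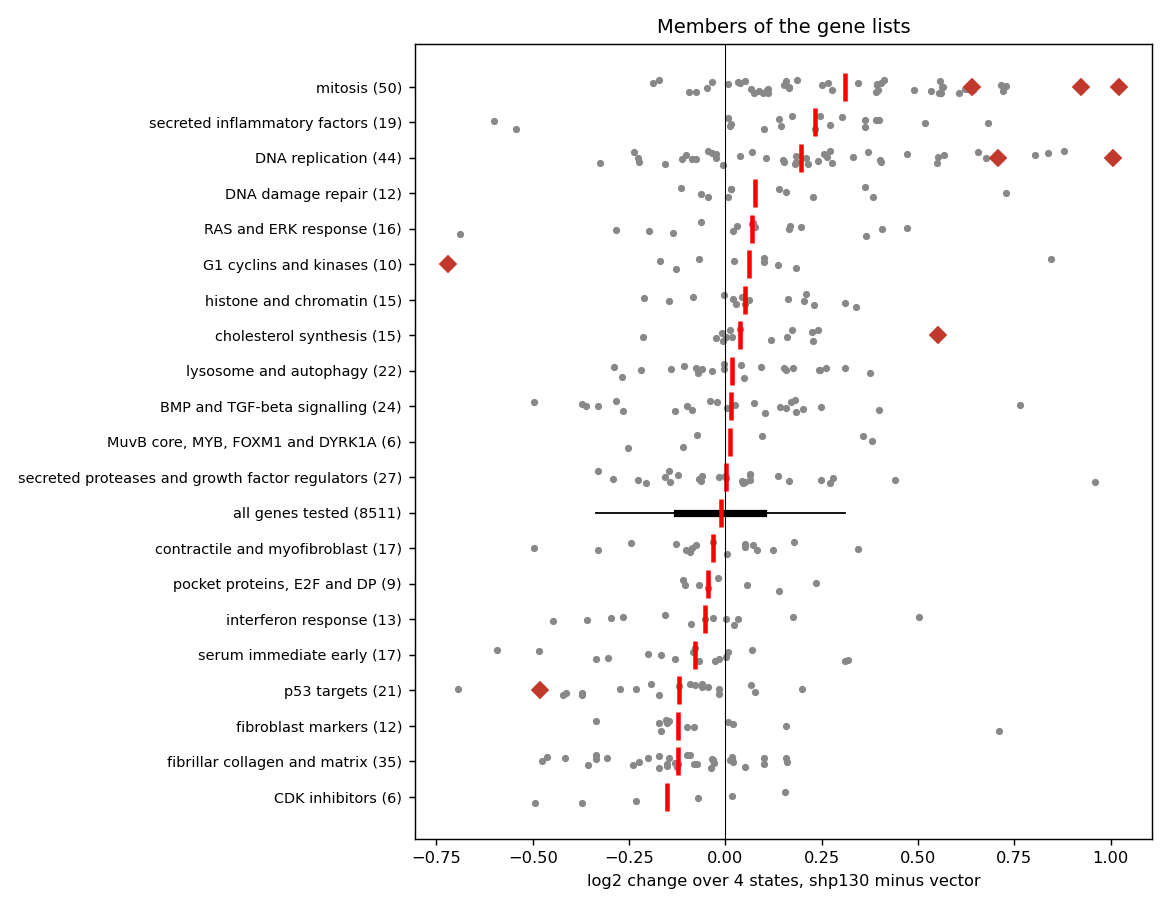
Log2 change over the 4 states, shp130 minus vector (x axis), of the tested members of each list (y axis, number tested in brackets). Grey points are members, red diamonds are called members, red ticks are list medians, and RBL2 is left out for scale. The black row gives all 8511 genes, with a thick line from the 25 to the 75 percentile and a thin line from the 5 to the 95 percentile. The mitosis list has the highest median, 0.31.

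When each state was tested alone, with 2 arrays against 2 and the spread pooled over all 32 arrays of experiment 1, few of these genes passed. In growing cells 5 genes were called (0.0587%, with 379 or 4.45% at an unadjusted p under 0.05), in low serum 23 (0.27%, with 471 or 5.53%), in confluent cells 2 (0.0235%, with 456 or 5.36%) and in senescent cells 142 (1.67%, with 1016 or 11.9%). Of the 46 genes, 1, 3, 0 and 7 were called in the 4 states in that order, each in the direction of the fit over all states. Their median change by state was 0.60, 0.63, 0.81 and 0.84 for the rises and -0.61, -0.66, -0.55 and -0.82 for the falls. Counts by state rested on single arrays. The confluent count was 223 without vector replicate 1, 45 without vector replicate 2 and 11 without shp130 replicate 2. The low-serum count was 41 and 5 without vector replicates 1 and 2, and 6 and 1 without shp130 replicates 1 and 2. The growing count was 10 and 2 without vector replicates 1 and 2, and 2 and 3 without shp130 replicates 1 and 2. The senescent count was 71 and 46 without vector replicates 1 and 2, and 54 and 52 without shp130 replicates 1 and 2.

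Genes called in 3 states were then read in the fourth. Without the growing arrays 8 genes other than RBL2 were called, and all 8 changed in the same direction in growing cells, with a median of 0.56 in that direction. Without the low-serum arrays 8 of 9 did so in low serum, with a median of 0.62. Without the confluent arrays 56 of 75 did so in confluent cells, with a median of 0.37, and without the senescent arrays the only gene, SLC25A44, did so in senescent cells. In the 3 states of each fit, where the genes were chosen, the median sizes were larger. They were 1.23, 0.87 and 0.74 without the growing, low-serum and confluent arrays. Over all genes tested the share with the same direction was 50.2% to 56.3%. Across the 8511 genes the shp130 effects of any 2 states correlated weakly, with Pearson's r of 0.069 to 0.20 as a description, since genes are not independent. The effect in the state left out shares no array with the fit over the other 3.

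The other hairpins were set beside shp130 for the 46 genes. These genes were chosen on the shp130 arrays, and all comparisons with vector share the vector arrays. Direct tests of shp130 against shRB or shp107 reuse those shp130 arrays, so their counts for these genes lean towards the chosen direction. With shp107 against vector 1 gene was called (0.0117%, with 1080 or 12.7% at an unadjusted p under 0.05) and none of the 46. RBL1 itself changed by -0.66 ± 0.18 with shp107 (limma, adjusted p = 0.252). Its vector values, 3.24 to 4.65, were all under the floor, so loss of p107 RNA is not established on these arrays. RB1 changed by -4.68 ± 0.25 with shRB (limma, adjusted p = 1.18e-07). With shRB against vector 375 genes were called (4.41%), 2.33% higher and 2.08% lower. Of the 22 rises, shRB raised 2 (CENPW and RPA1) and lowered 1 (GLA). Of the 24 falls, it lowered 3 (MAPK6, RRM2B and SPOPL) and raised 1 (HMGN2). Without the confluent arrays shRB against vector called 143 genes (1.68%, with 1.09% higher and 0.587% lower), none of the 22 rises and 2 of the 24 falls (MAPK6 and NEDD4). Direct tests called 748 genes between shp130 and shRB (8.79%) and 463 between shp130 and shp107 (5.44%), or 413 (4.85%) and 64 (0.752%) without the confluent arrays. Leaving out 1 array moved these to between 488 and 807 against shRB, the lowest without growing shp130 replicate 1, and to between 170 and 438 against shp107, the lowest without confluent shp130 replicate 2. Against shRB, 15 of the 22 rises were higher with shp130 (3.77% of all genes were) and 15 of the 24 falls were lower (5.02% were). Against shp107, 15 of 22 were higher (1.75%) and 18 of 24 lower (3.69%). Without the confluent arrays the counts against shRB were 8 of 22 (1.72%) and 14 of 24 (3.14%), and those against shp107 were 3 of 22 (0.164%) and 7 of 24 (0.587%). The median of shp130 minus shp107 was 0.70 for the rises and -0.64 for the falls without the confluent arrays, and 0.76 and -0.67 with them.

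Gene by gene, RPA1 changed by 0.71 with shp130 and by 0.70 with shRB (adjusted p = 0.0390), and shp130 minus shRB was 0.00 ± 0.13 (adjusted p = 0.996). Without the confluent arrays the shRB change of RPA1 was 0.82 (adjusted p = 0.0622). MAPK6 changed by -0.63 with shp130 and -0.61 with shRB, a difference of -0.02 ± 0.12 (adjusted p = 0.937). RRM2B changed by -0.48 with shp130 and -0.69 with shRB, a difference of 0.21 ± 0.15 (adjusted p = 0.388). NEDD4 changed by -0.55 with shp130, while -0.63 with shRB missed the threshold (adjusted p = 0.0576) and passed it without the confluent arrays (-0.87, adjusted p = 0.0326). For these genes the test found no difference between the 2 hairpins, which does not show that they act alike. GLA went opposite ways, 0.68 with shp130 and -0.50 with shRB, a difference of 1.18 ± 0.14 (adjusted p = 0.000500). That difference was 1.04 ± 0.13 (adjusted p = 0.00459) without the confluent arrays, where the shRB change of GLA, -0.38, was not called (adjusted p = 0.156). JAM3 (-0.80 ± 0.11), KCTD15 (-1.19 ± 0.23), SLC25A44 (-0.66 ± 0.13) and CDK6 (-0.68 ± 0.18) were also lower with shp130 than with shRB without the confluent arrays. CKS1B (0.54 ± 0.23, adjusted p = 0.198) and ZWILCH (0.65 ± 0.17, adjusted p = 0.0539) then missed the threshold against shRB.

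The replication and mitosis lists were compared between shp130 and shRB as well. DNA replication genes had a median change against vector of 0.20 with 2 of 44 called for shp130, and of 0.75 with 19 called higher for shRB (2.33% of all genes were). Of the 44, 15 were called lower with shp130 than with shRB (5.02% of all genes were). Leaving the confluent arrays out, these medians were 0.13 for shp130 and 0.95 for shRB, with 2 and 15 calls (1.09% of all genes were higher with shRB), and 16 genes were called lower with shp130 than with shRB (3.14% of all). Mitosis genes had a median of 0.31 and 3 calls for shp130, and of 0.45 and 1 call for shRB. With those arrays left out they had 0.19 and 2 calls for shp130, and 0.48 and 1 call for shRB. In senescent cells the replication mean was 6.08 and 6.13 with shp130, 7.54 and 7.08 with shRB, 5.74 and 5.75 with shp107, and 5.68 and 5.90 with vector. The shp130 arrays there stood above both vector arrays and well below both shRB arrays.

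Another set of genes differed in its shp130 effect between states. The F-test called 11 of 8511 genes (0.129%, with 572 or 6.72% at an unadjusted p under 0.05). None was among the 46, which were chosen by a fit that favours effects alike across states. The F-test count was 116 without confluent vector replicate 1, 29 without confluent vector replicate 2 and 38 without confluent shp130 replicate 2. It was 7 without growing shp130 replicate 2, and 6 without senescent vector replicate 1 or either senescent shp130 array. CES1, a carboxylesterase of lipid and drug metabolism, measured 8.38 and 8.62 on the senescent shp130 arrays against 5.03 and 4.33 on the senescent vector arrays. Its senescent change was 3.82 ± 0.24, and it lay below the floor in the 3 other states. The senescent shp107 arrays had 6.50 and 5.66 and the shRB arrays 3.90 and 3.59, so that shp107 also stood above vector. NEFL, the light neurofilament chain, measured 7.68 and 7.77 against 5.22 and 4.80 in senescent cells, a change of 2.71 ± 0.22, while shp107 gave 6.08 and 6.82 there. CRCT1, named for a cysteine-rich C-terminus, measured 7.88 and 6.28 with shp130 against 4.02 and 3.64 with vector there. MCTP1, a calcium-binding membrane protein, measured 4.95 and 4.78 with shp130 against 6.60 and 6.30 with vector in senescent cells. EREG, the growth factor epiregulin, differed in growing cells, with 7.56 and 7.63 for shp130 against 4.46 and 4.14 for vector. In confluent cells EREG stood at 10.40 and 10.17 with shp130 against 10.32 and 10.29 with vector, while shRB gave 3.29 and 3.29 and shp107 2.96 and 3.40. EREG is thus one of the genes on which the confluent arrays split.

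**Figure D5:**
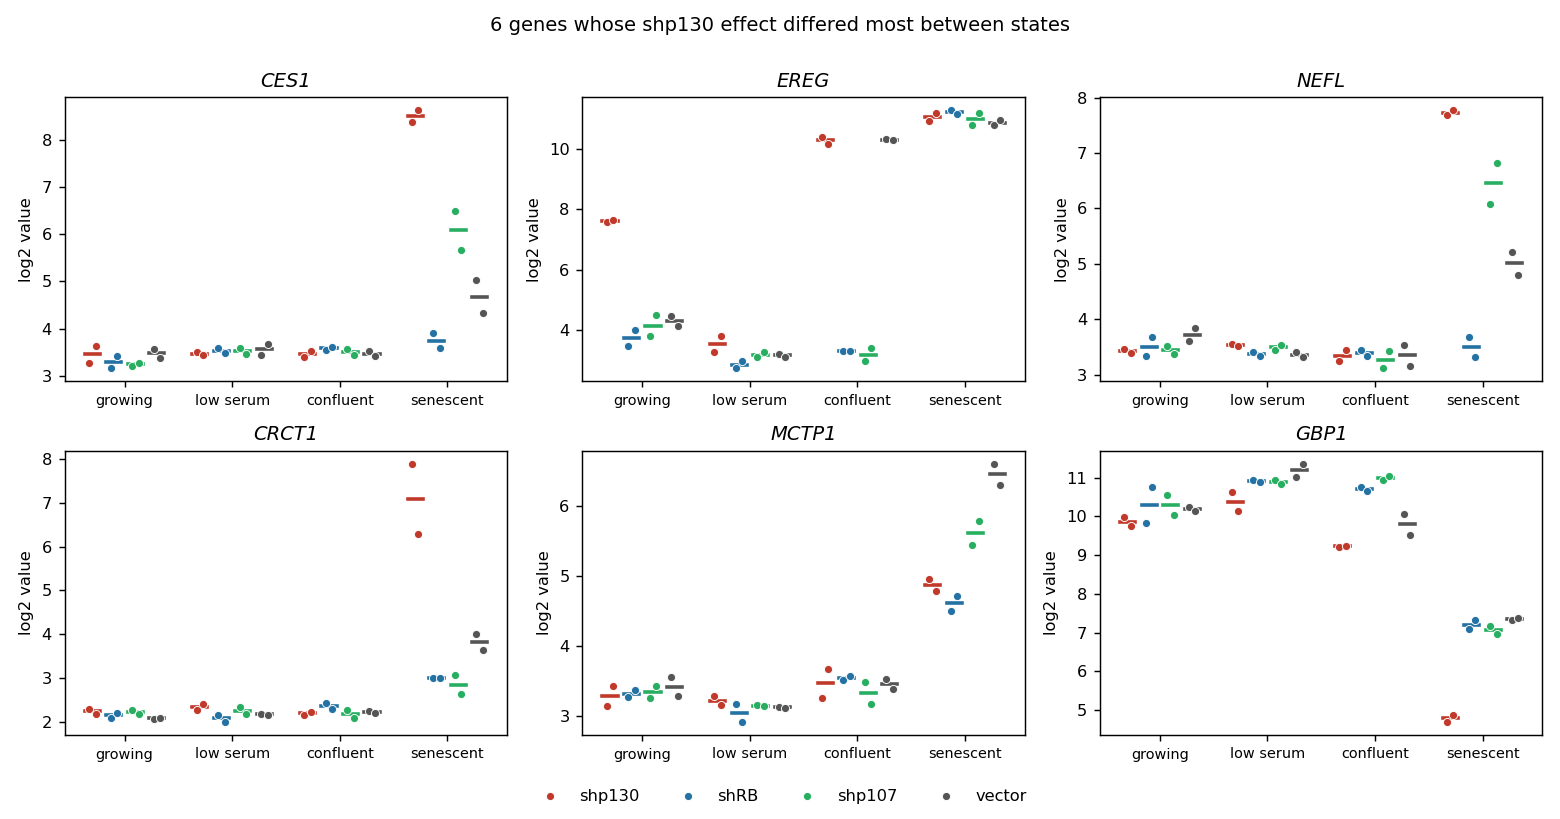
Log2 values (y axis) of the 6 genes with the smallest p in the test of the shp130 effect between states, in the 4 growth states (x axis). Points are single arrays and bars are means of the 2 arrays, in the order shp130, shRB, shp107 and vector. CES1 reaches 8.38 and 8.62 with shp130 in senescent cells only, and EREG reaches 7.56 and 7.63 with shp130 in growing cells.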

How the data were processed

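Total RNA from IMR90 cells was hybridised as biotin-labelled cRNA, made from 1 µg, to Affymetrix arrays, per the labels' protocols. The deposited values are log2 signals, 1 per probe set and array, summarised by the authors with GCRMA, per the submitters' processing notes. GCRMA corrects background from probe sequence, so dim values sit near a floor and their changes are understated. The sources used here do not give whether the 38 arrays were normalised jointly. Every value column was used.

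Of 54613 probe sets, 41091 named 1 gene, 1801 several and 11721 none here, per GEO's platform annotation. Each of 19775 genes was read from its brightest probe set, by the mean of the 38 arrays. The 8511 genes that passed a log2 value of 5 on 2 or more of experiment 1's 32 arrays were tested. Precision is set by the number of arrays. The comparison over 4 states was fitted with limma 3.58.1 in R 4.3.3 on 16 arrays, with growth state as block (11 residual and 4.34 prior degrees of freedom). Effects by state and the F-test used 1 mean per group over 32 arrays (16 and 4.85). P-values of genes were adjusted by Benjamini-Hochberg over all 8511, with calls made below 0.05. Further probe sets were read from the same block fit over all 54613 probe sets without the filter, adjusted over those. That scale differs from the one for genes. On it the probe sets used for DCUN1D4 (adjusted p = 0.0718) and SPOPL (adjusted p = 0.0839), called as genes, were not called. Scripts were tested on simulated data.

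Named genes were RB1, RBL1, RBL2, the 15 largest rises and 15 largest falls called and apart in every state, the 5 smallest p-values of the F-test, up to 4 called members per list, the small cell cycle lists, and CES1 and NEFL. Provisional symbols were left out, and the values of 1 gene that fell are not reported here. Members and lists were chosen with earlier results of these data known. Alternatives were quantile normalization, other filters, the mean over probe sets, an eBayes trend, a replicate block, and leaving out arrays or states. Promoter sequences are RefSeq's (GRCh38.p14). Tables and figures were made with Python 3.11.15, pandas 2.3.3, numpy 2.4.6 and matplotlib 3.10.9.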

Additional observations from a re-analysis of the deposited data

Results flagged for a closer look

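The shp130 effect differed between growth states for 11 genes in the F-test (limma, Benjamini-Hochberg over 8511 genes). The adjusted p was 7.85e-07 for CES1, 2.354e-05 for EREG, 2.554e-05 for NEFL, 0.0003552 for CRCT1 and 0.01431 for MCTP1. GBP1, an interferon-induced GTPase, had 0.01624, with senescent values of 4.69 and 4.88 with shp130 against 7.32 and 7.38 with vector. OTUB2 had 0.01716 and a senescent change of 1.54. NEFM, the medium neurofilament chain, had 0.02086, with senescent values of 6.10 and 5.99 with shp130 against 4.02 and 4.26 with vector. ESM1 had 0.04713 and a senescent change of 1.18. PAQR5 also had 0.04713, with 5.65 and 6.12 with shp130 against 4.23 and 4.22 with vector, and PAEP had 0.0478, with 6.82 and 6.60 with shp130 against 3.79 and 4.10 with vector. The vector values of NEFM, PAQR5, PAEP and CRCT1 and the shp130 values of GBP1 and MCTP1 there were under the floor of 5, so that the sizes of those changes are poorly measured. In 10 of the 11 genes the largest change was in senescent cells, EREG being the exception. The last 6 genes lie outside the rule for named genes and complete the count.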

How the results depend on the processing

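With 2 arrays per group, counts moved far more than values. No named gene called in the fit over 4 states changed direction under any of the 24 to 26 alternatives run for it, and RBL2 and SLC25A44 kept their call in all. Over all named genes 783 values kept their direction and side of the threshold, 211 lost the call and 7 changed sign without ever being called. The 7 were RB1 with the mean over probe sets (-0.048), without the growing arrays (-0.082) and without growing shp130 replicate 1 (-0.013), RBL1 without the growing arrays (-0.063) and without growing shp130 replicate 1 (-0.013), and CES1 (-0.044) and NEFL (-0.045) without the senescent arrays. Leaving out 1 array gave -0.013 to 0.135 for RB1 and -0.013 to 0.262 for RBL1. Causes were not tested.

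The labels do not say what replicate letters stand for. Deviations of same-letter shp130 and vector arrays correlated at 0.072 (growing), -0.023 (low serum), -0.21 (confluent) and 0.014 (senescent), so the fits were made without the letters. Other hairpins shared more in places, as vector and shp107 did in low serum (0.49) and shRB and shp107 in confluent cells (0.31), and the mitosis mean was higher on the second array for all 4 hairpins in both states. With a replicate block the counts were 20 genes over 4 states, 19 of them also apart in every state, 273 against shRB, 55 against shp107, 3 in growing cells and 17 in the F-test. With the letters crossed in the confluent state, a choice made after seeing the data, they were 23 and 20. Without the growing arrays the fit over 4 states, the genes apart, shRB and shp107 gave 9, 9, 141 and 116. Without the low-serum arrays the first pair gave 10 and 10 and shp107 gave 241. Without the confluent arrays the 4 counts were 76, 73, 413 and 64, and without the senescent arrays the first pair gave 2 and 2. A fit with 1 mean per group over 32 arrays gave 96, 1564 against shRB and 1244 against shp107. The shp107 comparison gave 264 without a filter. Growing cells gave 9 with quantile normalization and 2 with the 16 arrays only. Low serum gave 51 with a variance trend and 1 with the 16 arrays only. Confluent cells gave 4 with quantile normalization and 1 with the filter at 7, the mean over probe sets, the trend or the 16 arrays only. The F-test gave 19, 4, 7, 17 and 6 under those 5 settings. Leaving out 1 array gave 20 to 72 genes over 4 states, 20 to 62 apart, 488 to 807 against shRB, 170 to 438 against shp107, 2 to 10 in growing, 1 to 41 in low-serum, 3 to 223 in confluent and 46 to 71 in senescent cells, and 6 to 116 in the F-test. An arm left with 1 array was assumed to vary like the other groups.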
